A study of Mus musculus with 2 samples.

Results

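The enzymes of one-carbon and glycine metabolism were followed by RNA-seq in E14 mouse embryonic stem cells (ESCs) and E14-Sox2TA/WT cells derived from them. The set held 9 genes, chosen by symbol, out of the 24532 genes in the table: Gldc, Gcat, Shmt1, Shmt2, Mthfd1, Mthfd1l, Mthfd2, Tyms and Mat2a. E14 is an established mouse ESC line, labelled WT, and was grown in serum with leukemia inhibitory factor. E14-Sox2TA/WT cells were cloned from E14 after editing with CRISPR/Cas9, and whether the library holds a single clone is not given in the sources used here. They carry T258A on 1 allele of the pluripotency factor Sox2, so that the protein from that allele cannot hold the sugar O-GlcNAc at residue 258. Clones were selected and kept with inhibitors of Mek and Gsk3, which were withdrawn before use, so genotype, cloning and culture history cannot be told apart. Each genotype had 1 library of polyadenylated RNA. The differences below could not be checked against replicates, and p-values are not given.

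One-carbon metabolism moves single carbon atoms, carried on tetrahydrofolate, from donors such as serine and glycine to the syntheses of purines, thymidylate and methionine. The pathway runs in parallel in mitochondria, where carbon units are mostly made and exported as formate, and in the cytosol, where they are mostly used. Mouse ESCs are known for feeding this pathway from threonine, which is broken down to glycine, and for their sensitivity to the supply of S-adenosylmethionine, the methyl donor of DNA and histone methylation.

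The count table held 60263536 reads in E14 and 44609228 in E14-Sox2TA/WT cells. The 9 genes together held 0.201% of all reads (E14) and 0.198% (E14-Sox2TA/WT cells), from 3481 to 26961 reads per gene and library. Levels are given as TPM, a read count scaled for gene length and for the library. Differences are log2 ratios of TPM, E14-Sox2TA/WT over E14, with a 95% exact (Clopper-Pearson) interval from the read counts that covers counting error only. Background genes were the 9094 genes that reached 10 TPM in either library, and their median log2 ratio was 0.08 with quartiles at -0.23 and 0.39. The edited gene itself, Sox2, was at 373 TPM in E14 and 274 TPM in E14-Sox2TA/WT cells, a log2 ratio of -0.44, which does not check the edit because the allele differs by sequence.

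Cell identity was checked with fixed marker lists. All 6 ESC markers passed the filter in these libraries, with Pou5f1 at 1725 and 1759 TPM in E14 and E14-Sox2TA/WT cells and Nanog at 527 and 251 TPM, and the summed level of the list went from 11308 to 8292 TPM. Most of that change came from Dppa5a, the most abundant of them, at 6877 and 4429 TPM. On the TPM scale 4 of the 6 were lower and 2, Pou5f1 and Esrrb, were higher. Zfp42 and Tdgf1 had log2 ratios of -0.23 and -0.34, and Esrrb 0.10. Of the 6 fibroblast markers, Postn and Dcn had no reads in either library, and the sum was 43.1 TPM in E14 and 16.6 TPM in E14-Sox2TA/WT cells, of which Thy1 made up 40.1 and 11.4 TPM. The other fibroblast markers with reads were low and higher in E14-Sox2TA/WT cells, with Col1a1 at 2.66 and 2.95 TPM, Col1a2 at 43 and 109 reads and Col3a1 at 15 and 151 reads. The 6 primitive endoderm markers summed to 46.2 and 17.1 TPM. The 6 trophoblast markers summed to 110 and 195 TPM, with Elf5 without reads in either library, Cdx2 at 0.474 and 12.2 TPM and Krt8 at 53.9 and 156 TPM, whereas Tfap2c of the same list was at 50.9 and 16.1 TPM. The 6 neural markers summed to 90.9 and 120 TPM, with Nes at 6.67 and 36.2 TPM and Tubb3, the most abundant of them, at 77.3 and 65.8 TPM. The part of these shifts in the differences of the enzyme genes was not tested. In bulk RNA, fewer cells of a type and less RNA per cell cannot be told apart.

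The promoters of 4 genes, picked after the values had been seen because they had the highest ratio (Mat2a), the lowest (Mthfd2) or opposite directions within a pair (Shmt1 and Shmt2), are shown first, as the 250 bases before the start of 1 RefSeq transcript per gene. The sequences are from RefSeq (GRCm38.p6), where 9 of 9 genes matched. They are chr6:72439557-72439806 for Mat2a, chr6:83317605-83317854 for Mthfd2, chr11:60811266-60811515 for Shmt1 and chr10:127522445-127522694 for Shmt2, all on the minus strand and written 5′ to 3′. For Mthfd2 the RefSeq start lies inside the gene span given below, which covers every RefSeq transcript model of the gene, some of them reaching farther upstream. Capitals mark the TATAAA box and the CCAAT box, the latter written in its reverse complement where it lies on the other strand. Both motifs were added after the values had been seen.
Mat2a: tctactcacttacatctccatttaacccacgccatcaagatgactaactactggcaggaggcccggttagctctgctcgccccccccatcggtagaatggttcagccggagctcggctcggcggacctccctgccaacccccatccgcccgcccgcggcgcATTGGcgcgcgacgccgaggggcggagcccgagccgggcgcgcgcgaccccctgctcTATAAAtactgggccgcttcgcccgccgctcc
Mthfd2: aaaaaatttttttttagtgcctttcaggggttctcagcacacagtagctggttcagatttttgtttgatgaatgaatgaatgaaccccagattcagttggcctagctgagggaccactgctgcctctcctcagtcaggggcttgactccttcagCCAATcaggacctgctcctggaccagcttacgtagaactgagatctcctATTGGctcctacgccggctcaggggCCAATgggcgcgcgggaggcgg
Shmt1: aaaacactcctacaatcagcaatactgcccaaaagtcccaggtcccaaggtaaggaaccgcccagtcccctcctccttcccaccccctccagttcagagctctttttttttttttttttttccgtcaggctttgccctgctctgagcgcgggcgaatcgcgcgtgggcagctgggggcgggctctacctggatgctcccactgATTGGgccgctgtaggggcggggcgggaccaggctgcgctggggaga
Shmt2: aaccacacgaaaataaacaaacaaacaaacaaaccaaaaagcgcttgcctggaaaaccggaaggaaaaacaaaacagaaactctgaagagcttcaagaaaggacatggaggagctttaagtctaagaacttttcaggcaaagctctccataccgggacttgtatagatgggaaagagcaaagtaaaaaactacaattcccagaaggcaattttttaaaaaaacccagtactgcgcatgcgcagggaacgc

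The Mat2a stretch was the richest in GC of these 4, at 67.6% with 29 CpG, and held a TATAAA 32 bases before the start and 1 CCAAT. The Mthfd2 stretch had 52.4% GC, 7 CpG and 3 copies of CCAAT, at 96, 47 and 22 bases before the start. The Shmt1 stretch had 60% GC, 13 CpG and 1 CCAAT, whereas that of Shmt2 had 40.8% GC, 7 CpG and neither motif. In windows of 300 bases around the start, on both strands, CCAAT was found for 5 of the 9 genes and in 37.4% of 32851 windows, and TATAAA for 1 of the 9 genes and in 13.6% of windows. The E-box CACGTG, the site of Myc-type factors, was present for Tyms and Gcat and in 7.15% of windows. TGATGNAA, the letters of the C/EBP-Atf response element to which Atf4 binds, was in 3.97% of windows and in none of the 9. CATTGTT, a Sox site, was in 3.78% of windows and in none of the 9, and the E2F forms TTTCGCGC and TTTGGCGC, in 0.323% and 0.514% of windows, were also in none of the 9. A match describes letters in a window and is not evidence of binding, and a missing match says nothing of the factor.

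All 9 genes passed the TPM filter. Mat2a was more than 2-fold higher in E14-Sox2TA/WT cells, and none of the 9 was more than 2-fold lower. Of the background genes, 4.17% were more than 2-fold higher and 4.07% more than 2-fold lower. In either direction, 5 of the 9 genes were higher and 4 lower (6 and 3 after removal of a GC and length trend, where Gcat turned), beside 57.3% higher among the background genes. The split of 5 and 4 also resulted against the median of all genes. The 9 genes had a median log2 ratio of 0.24 and a range of -0.94 to 1.14. The counting interval lay wholly above 0 for 5 genes (background 50.2%), wholly below 0 for 3 (background 35.2%), and included 0 for Gcat. The summed level of the 9 genes was 1410 TPM in E14 and 1486 TPM in E14-Sox2TA/WT cells, so the sum was close in both libraries while single genes moved apart.

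**Figure D1:**
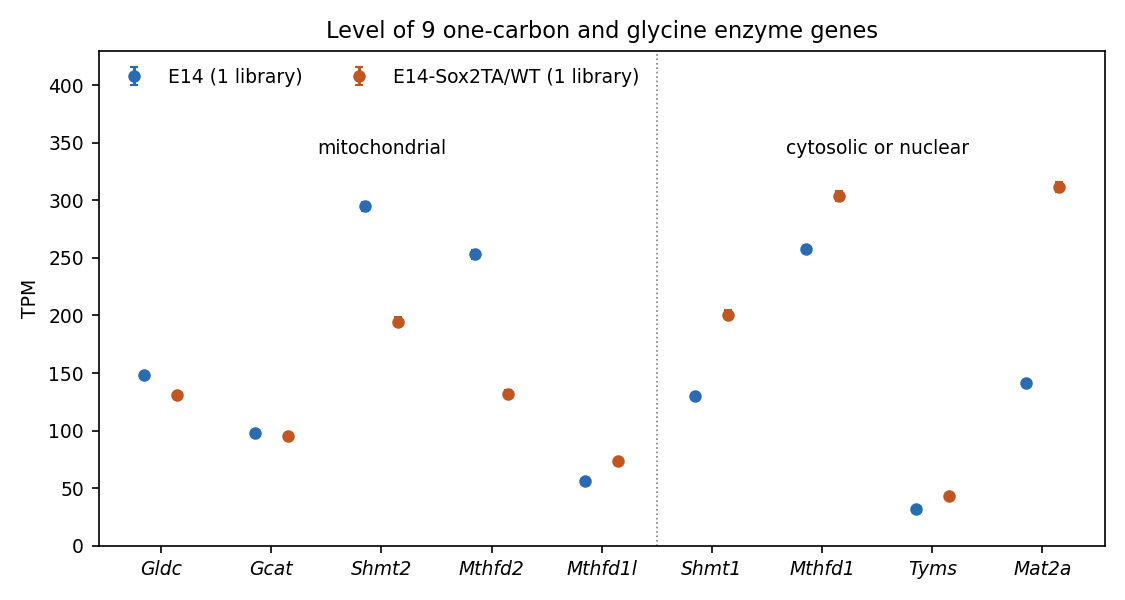
TPM (vertical axis, linear from 0) of each gene in the E14 library (blue) and the E14-Sox2TA/WT library (red), with bars for the 95% counting interval. The 4 cytosolic or nuclear genes at the right were all higher in E14-Sox2TA/WT cells, and among the 5 mitochondrial genes only Mthfd1l was on this scale (Gcat too once a GC and length trend was removed).

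Serine hydroxymethyltransferases transfer a carbon from serine to tetrahydrofolate and leave glycine. Shmt2 (Entrez 108037; chr10:127517123-127522444, minus strand, 12 exons) encodes the mitochondrial form. It was at 295 TPM in E14, from 21395 reads, and at 195 TPM in E14-Sox2TA/WT cells, from 9457 reads, a log2 ratio of -0.60 (-0.64 to -0.57). Shmt1 (Entrez 20425; chr11:60788897-60811265, minus strand, 12 exons) encodes the cytosolic form. It went the other way, from 130 TPM and 8442 reads in E14 to 201 TPM and 8752 reads in E14-Sox2TA/WT cells, a log2 ratio of 0.63 (0.59 to 0.67). The pair thus converged: the ratio of Shmt2 to Shmt1 in TPM was 2.27 in E14 and 0.969 in E14-Sox2TA/WT cells, where the counting intervals of the levels overlapped. As a share of the reads of both genes, which does not depend on library scaling, Shmt2 took 71.7% (71.2 to 72.2) in E14 and 51.9% (51.2 to 52.7) in E14-Sox2TA/WT cells, an odds ratio of 0.426 (0.410 to 0.443). The share can still depend on GC content, which was 57.4% for the Shmt2 transcript and 49.2% for that of Shmt1. Across bins of GC content, the median log2 ratio of background genes spanned 0.44. With a GC and length trend removed, the log2 ratios were -0.39 for Shmt2 and 0.61 for Shmt1.

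The methylenetetrahydrofolate dehydrogenases carry the unit from serine between its oxidation states. Mthfd2 (Entrez 17768; chr6:83305704-83326011, minus strand, 8 exons), the mitochondrial dehydrogenase and cyclohydrolase, was the gene with the lowest ratio of the 9. It was at 253 TPM in E14, from 16505 reads, and at 132 TPM in E14-Sox2TA/WT cells, from 5761 reads, a log2 ratio of -0.94 (-0.98 to -0.90). That lies at percentile 4.59 of the background genes, and just inside 2-fold. On the scales of FPKM and of CPM, counts scaled to the library total (-1.08 on both), and with centring on the median of all genes (-1.03), it was past 2-fold. Its paralog Mthfd2l, also mitochondrial, stayed under the filter at 1.12 TPM (80 reads) in E14 and 4.60 TPM (219 reads) in E14-Sox2TA/WT cells, so Mthfd2 held 99.5% and 96.3% of the reads of the pair, an odds ratio of 0.128 (0.0973 to 0.166).

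Mthfd1l (Entrez 270685; chr10:3972892-4167081, plus strand, 28 exons), the mitochondrial synthetase that frees formate for export, was the mitochondrial gene that was higher. It was at 56.0 TPM (6545 reads) in E14 and 73.8 TPM (5777 reads) in E14-Sox2TA/WT cells, a log2 ratio of 0.40 (0.34 to 0.45). Mthfd1 (Entrez 108156; chr12:76254406-76319820, plus strand, 28 exons), the cytosolic enzyme that takes formate up again and carries all 3 activities, was at 258 TPM (26961 reads) and 304 TPM (21302 reads), a log2 ratio of 0.24 (0.21 to 0.26). These paralogs moved in the same direction by similar amounts, and Mthfd1l took 19.5% of the reads of the pair in E14 and 21.3% in E14-Sox2TA/WT cells, an odds ratio of 1.12 (1.07 to 1.16).

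Gldc and Gcat lay within the middle 50% of the background ratios. Gldc (Entrez 104174; chr19:30098441-30175441, minus strand, 25 exons), the glycine decarboxylase of the mitochondrial glycine cleavage system, was at 148 TPM (17657 reads) in E14 and 131 TPM (10451 reads) in E14-Sox2TA/WT cells, a log2 ratio of -0.18 (-0.21 to -0.14). Gcat (Entrez 26912; chr15:79030874-79042531, plus strand, 9 exons), which splits the product of threonine dehydrogenase into glycine and acetyl-CoA, was at 98.2 TPM (7299 reads) and 95.3 TPM (4736 reads). Its log2 ratio of -0.04 had an interval from -0.10 to 0.01, so counting error alone did not set it apart from 0. The choice of scaling moved it farther, to -0.19 with CPM, and its sign turned (0.18) once the dependence on GC content and length was removed.

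Tdh, threonine dehydrogenase, the step before Gcat, was by contrast at 350 TPM (20753 reads) in E14 and 732 TPM (29040 reads) in E14-Sox2TA/WT cells, a log2 ratio of 1.06 (1.04 to 1.09). The consecutive steps of threonine breakdown were therefore apart, with Tdh at 3.57 times the TPM of Gcat in E14 and at 7.68 times in E14-Sox2TA/WT cells. The share of Gcat in the reads of both was 26.0% and 14%, an odds ratio of 0.464 (0.445 to 0.483). Amt, the aminomethyltransferase that works after Gldc, was lower at 130 and 97.0 TPM, a log2 ratio of -0.42, whereas Gcsh, the lipoyl carrier protein of the same system, was higher at 254 and 342 TPM, a log2 ratio of 0.43. Gldc held 76.5% of the reads of Gldc and Amt in E14 and 79.4% in E14-Sox2TA/WT cells, an odds ratio of 1.18 (1.12 to 1.24).

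Mat2a (Entrez 232087; chr6:72432796-72439556, minus strand, 9 exons) encodes the catalytic subunit of methionine adenosyltransferase, which makes S-adenosylmethionine. It was the gene with the highest ratio of the 9, with 141 TPM (12447 reads) in E14 and 312 TPM (18436 reads) in E14-Sox2TA/WT cells, 2.21-fold or a log2 ratio of 1.14 (1.11 to 1.18), at percentile 97.0 of the background. Mat2a stayed past 2-fold under every scaling tried, although its log2 ratio of FPKM or CPM was 1.001, at the threshold. Mat2b, the regulatory subunit, was at 63.9 and 78.8 TPM, a log2 ratio of 0.30, and the ratio of Mat2a to Mat2b in TPM was 2.2 in E14 and 3.95 in E14-Sox2TA/WT cells. Mat2a took 75.4% of the reads of the pair in E14 and 84.5% in E14-Sox2TA/WT cells, an odds ratio of 1.78 (1.69 to 1.87). Mat1a, the liver-type catalytic gene, had no reads in either library.

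Tyms (Entrez 22171; chr5:30038546-30073645, minus strand, 7 exons), thymidylate synthase, uses methylenetetrahydrofolate to make the thymidine nucleotide and was the lowest of the 9 in level in both libraries. It was at 31.5 TPM (3772 reads) in E14 and 43.4 TPM (3481 reads) in E14-Sox2TA/WT cells, a log2 ratio of 0.46 (0.40 to 0.53).

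**Figure D2:**
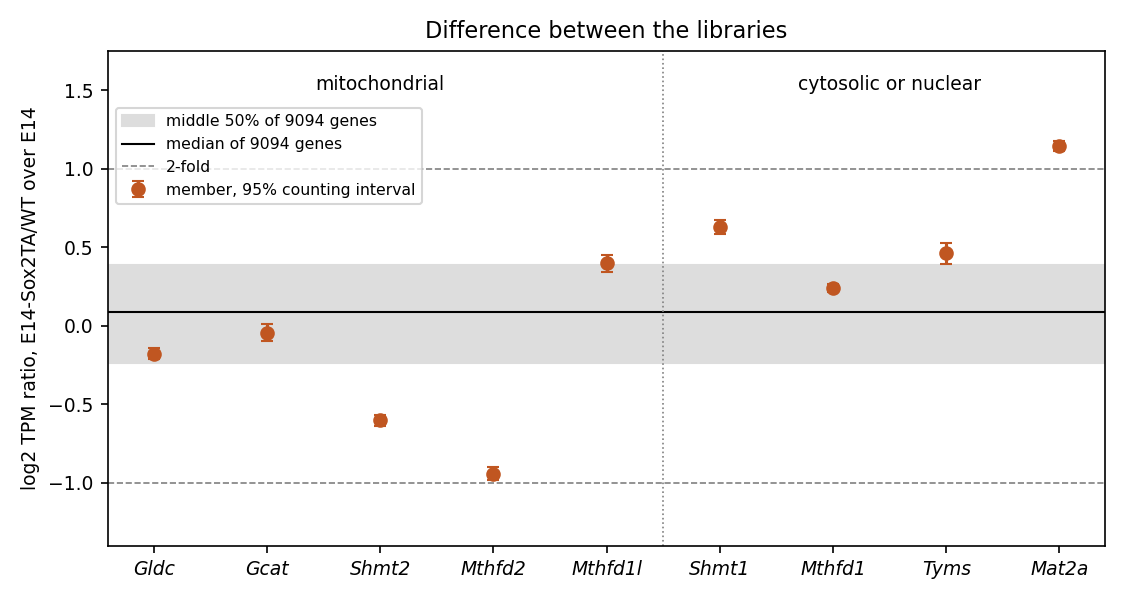
Log2 TPM ratio (E14-Sox2TA/WT over E14, vertical axis) of each gene with its 95% counting interval, over the middle 50% (grey) and the median (line) of 9094 background genes. Mthfd2 and Shmt2 lie below the grey band, Mthfd1l at its upper edge, Tyms and Shmt1 above it, and Mat2a (1.14) beyond the upper 2-fold line.

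Grouped by compartment, a grouping made after the values had been seen, the 5 mitochondrial genes summed to 851 TPM in E14 and 626 TPM in E14-Sox2TA/WT cells. Shmt2, Mthfd2, Gldc and Gcat were lower, with the exception for Gcat given above, and the median log2 ratio was -0.18. The 4 cytosolic or nuclear genes, Shmt1, Mthfd1, Tyms and Mat2a, were all higher (background 57.3%), summed to 560 and 859 TPM and had a median of 0.55. The mitochondrial share of the summed TPM of the 9 genes was 60.3% in E14 and 42.2% in E14-Sox2TA/WT cells. Mat2a accounted for 171 TPM of the rise in the cytosolic or nuclear sum. Genes outside the 9 did not all follow this split. The mitochondrial Tdh (1.06), Gcsh (0.43) and Mthfd2l (2.04, under the filter) were higher, and the cytosolic folate enzyme Aldh1l1 was lower (-0.92). The mitochondrial Amt (-0.42) and Aldh1l2 (-2.68, under the filter) were lower.

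The order of levels changed at the top and stayed at the bottom. In E14, Shmt2 was highest at 295 TPM, followed by Mthfd1 and Mthfd2, whose counting intervals overlapped, and then by Gldc, Mat2a and Shmt1. In E14-Sox2TA/WT cells, Mat2a and Mthfd1 came first with overlapping intervals, then Shmt1 and Shmt2, which overlapped, then Mthfd2 and Gldc, which overlapped. Gcat, Mthfd1l and Tyms held the last places in this order in both libraries, with no overlap between neighbours. The highest level was 9.36 times the lowest in E14 and 7.18 times in E14-Sox2TA/WT cells. These levels rest on the gene lengths behind the deposited values, which for Shmt1 (2097 bases) and Tyms (3860 bases) differed from the annotated transcripts matched by RefSeq ID (2858 and 3163 bases). The lengths were nearly equal in both libraries and therefore leave the ratios in place.

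**Figure D3:**
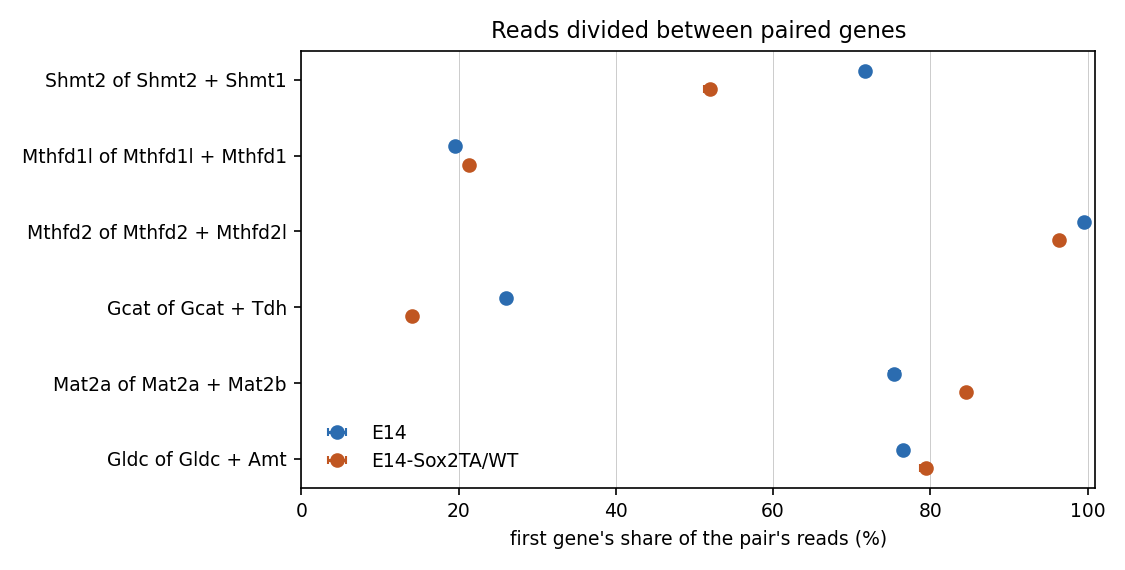
Share (%, horizontal axis) of the first gene in the summed reads of each pair in E14 (blue) and E14-Sox2TA/WT cells (red), with 95% exact binomial intervals. Shmt2 went from 71.7% to 51.9% and Gcat from 26.0% to 14%, while Mthfd1l and Gldc moved by less than 3 percentage points.

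Around the 9 genes, 50 other genes of 6 pathway lists were counted, of which 36 passed the filter. Of these, Tdh and Ggh, a hydrolase of folate polyglutamates (6.74 and 13.6 TPM), were more than 2-fold higher. Cth, cystathionine gamma-lyase of cysteine synthesis, was more than 2-fold lower. It was at 228 TPM (12955 reads) in E14 and 70.9 TPM (2696 reads) in E14-Sox2TA/WT cells, a log2 ratio of -1.69. That made 2 of 36 genes higher and 1 of 36 lower past 2-fold, beside 4.17% and 4.07% of the background genes. Neither Tdh nor Ggh passed 2-fold on the FPKM and CPM scales or with centring, and Ggh also missed it under TMM and median-of-ratios scaling, a pseudocount of 1 and trend removal. Aldh1l1 passed 2-fold lower on the FPKM and CPM scales and with centring, and Folr1 on the FPKM and CPM scales, so that 0 genes were then higher and 3 lower on FPKM and CPM. In either direction 19 of the 36 were higher and 17 lower, with a median of 0.09, beside 57.3% higher and a median of 0.08 among the background genes.

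Genes of purine synthesis, which spends formyl units, lay above the background median except Adsl. The 6 genes listed had a median of 0.48, from Adsl at 0.04 (-0.01 to 0.08), whose sign turned under TMM scaling, CPM, FPKM, centring and trend removal, to Ppat, the committed step, at 0.70 (0.66 to 0.74). For the direction counts that follow, 57.3% of the background genes were higher. Of the 7 genes of thymidine nucleotide synthesis, 5 were higher and 2 lower with a median of 0.25, between Dtymk at -0.41 and Dctd at 0.35. All 3 genes of folate transport that passed the filter were lower, with Folr1, a folate receptor, at 57.2 and 30.9 TPM (-0.89) and Slc19a1, the reduced folate carrier, at -0.19, the latter turning sign after trend removal. Of 9 genes of the methionine cycle, 3 were higher and 6 lower with a median of -0.04 (4 and 5 after trend removal, where Mtr, Ahcy and Cbs turned).

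The 6 other folate enzymes past the filter had 2 genes higher and 4 lower (3 and 3 after trend removal, background 57.3% higher), with a median of -0.06. Their extremes were Ggh at 1.02 and Aldh1l1, which oxidizes formyltetrahydrofolate in the cytosol, at -0.92. The 5 other glycine enzymes past the filter had a median of 0.14 and ran from Gnmt, which methylates glycine with S-adenosylmethionine, at -0.74 to Tdh. Aldh1l2, the mitochondrial counterpart of Aldh1l1, did not pass the filter and was at 6.59 TPM (1253 reads) in E14 and 1.03 TPM (131 reads) in E14-Sox2TA/WT cells, a log2 ratio of -2.68; it was named after its values were seen.

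**Figure D4:**
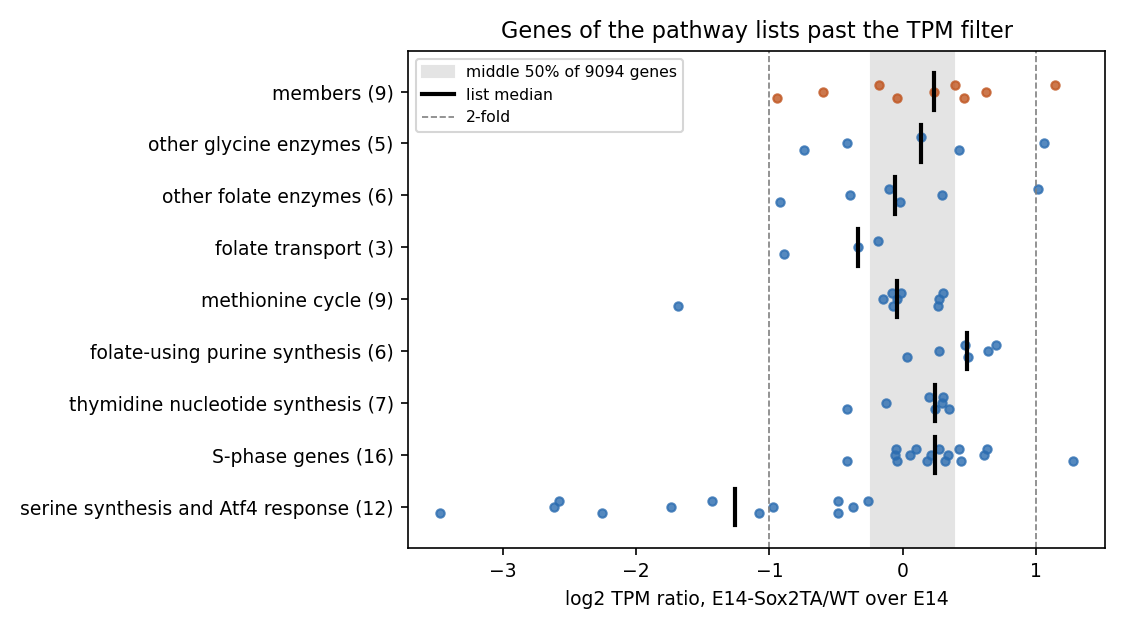
Log2 TPM ratio (horizontal axis) of every gene past the filter in each list, 1 point per gene, with the list median as a black bar, the middle 50% of 9094 genes in grey and 2-fold as dashed lines. The 9 genes (red) spread from -0.94 to 1.14, and the serine synthesis and Atf4 list lies wholly at or below -0.26.

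Upstream of the Shmt enzymes, the mRNAs of the serine synthesis enzymes were lower. Phgdh and Psat1, which start the route from glycolysis to serine, were at 389 and 591 TPM in E14 and 279 and 457 TPM in E14-Sox2TA/WT cells, and Psph, the last step, was at 110 and 51.9 TPM, a log2 ratio of -1.08. Together with target genes of Atf4, the transcription factor of the amino acid response, they formed a list of 12 genes, all of which were lower under every scaling tried, with a median of -1.26 and 7 genes more than 2-fold lower (background 4.07%). The count was 8 under TMM, median-of-ratios, CPM, FPKM and centring and 6 after trend removal. Those 7 were Psph, Asns, Chac1, Trib3, Ddit3, Ddit4 and Nupr1, down to -3.47 for Nupr1. The list was chosen with earlier results of these data known, so its count beside the background is a description only. Atf4 mRNA itself was at 748 TPM (40468 reads) in E14 and 279 TPM (10144 reads) in E14-Sox2TA/WT cells, a log2 ratio of -1.42. Of the mitochondrial folate pathway, Shmt2, Mthfd2 and Aldh1l2 were also lower, whereas Mthfd1l of the same pathway was higher (0.40). Dependence of any of these genes on Atf4 was not tested here.

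Genomic context was examined for genes that could share reads or a neighbourhood. Within 1 Mb on each side, a range chosen after the values had been seen, the genes past the filter had medians of -0.02 around Mat2a (21 genes), -0.10 around Mthfd2 (19), -0.05 around Shmt2 (45), 0.15 around Shmt1 (25) and 0.00 around Tyms (20). Mthfd1l and Mthfd1, at 0.40 and 0.24, lay close to their neighbours' medians of 0.39 (4 genes) and 0.19 (12), and Gldc at -0.18 lay under a median of 0.42 (7). The 37 neighbours of Gcat had a median of -0.10.

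Reads of overlapping genes could not be told apart by strand, since the strand setting of the counting is not given in the sources used here. Shmt1 shares 184 exonic bases with Smcr8 on the other strand, which had 2359 reads in E14 and 3301 in E14-Sox2TA/WT cells, so the level of Shmt1 is uncertain to that extent. Shmt2 shares 32 bases with Ndufa4l2 (189 and 36 reads), and Mat2a shares 508 bases with Particl (113 and 74 reads), both small beside the reads of the member. Mat2a also has a processed pseudogene, Gm9523, 95.6% identical over 1164 aligned bases, and Tyms shares a stretch of about 360 bases with many other transcripts. How reads with several matches were counted is not given in the sources used here, so both levels carry that uncertainty.

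**Figure D5:**
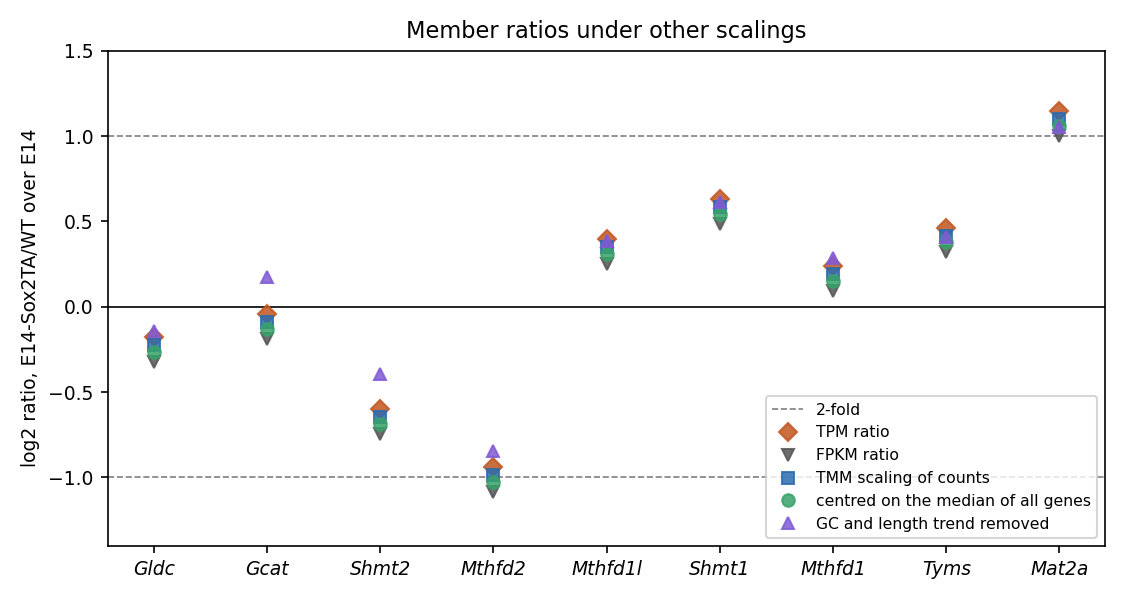
Log2 ratio (vertical axis) of each gene under the deposited TPM, the deposited FPKM, TMM scaling of the counts, centring on the median of all genes, and removal of a GC and length trend. Mthfd2 lies between -1.08 and -0.85 and crosses the lower 2-fold line, Mat2a stays between 1.001 and 1.14, and Gcat is the gene that changes sign.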

How the data were processed

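Polyadenylated RNA of E14 and E14-Sox2TA/WT cells was sequenced, with 1 library each, grouped by the genotype in the labels. The submitters' processing notes name bcl2fastq 2.20.0, Trimmomatic, HISAT2 2.1.0 and StringTie 2.1.3b. The role of each tool, the strand setting and the handling of multi-mapped reads are not given in the sources used here. The authors deposited 1 gene table on mm10 (GRCm38) with read counts, which are whole numbers and not normalized. The deposited FPKM divide the reads by gene length and library size, and the deposited TPM values were 1.94 (E14) and 2.15 (E14-Sox2TA/WT) times the FPKM. Library totals were 60263536 and 44609228 reads, and a floor of 3 reads equals 0.0498 and 0.0673 CPM (counts scaled to the library total).

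The filter (10 TPM in either library) and the 2-fold threshold follow the study's methods. Taking the ratio from TPM without a pseudocount was a choice made here. Exact Clopper-Pearson intervals (95%) were computed from the counts and put on the TPM scale, and odds ratios of read pairs carry exact conditional intervals. Both cover counting error only, and neither measures variation between cultures, because each genotype had 1 library. PCR duplicates are not independent molecules, so the intervals can be too narrow even for counting error. The 9 genes, the lists and the rules were chosen with earlier results of these data known. Named were the 9 genes, genes of the lists past 2-fold or at the ends of each list, both genes of each pair, and Atf4, Myc, Mycn, E2f1 and Sox2. Other genes were named after their values were seen. 1 gene was left out of the lists and pairs and is not reported here.

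Alternatives were pseudocounts of 0.1 and 1, other filters and thresholds, TMM (edgeR 4.0.16) and median-of-ratios (DESeq2 1.42.0) scaling, CPM, FPKM, centring, leaving the 10 highest genes out of the scaling, and removal of a GC and length trend (20 bins each), for which 99.5% of the genes had a transcript sequence. Copies were searched with BLAST 2.17.0 at 95% identity over at least 100 bases. Scripts ran in Python 3.11.15, scipy 1.17.1 and R 4.3.3 and were tested on simulated data.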

Additional observations from a re-analysis of the deposited data

How the results depend on the processing

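The median log2 ratio of all genes shifted by -0.14 with CPM or FPKM, and the split of genes past 2-fold moved from 379 higher and 370 lower (50.6% higher) to 280 and 496 (36.1%) with CPM, 278 and 496 (35.9%) with FPKM, and 307 and 436 (41.3%) with centring. Under these 3 settings Mthfd2 became the 1 gene of the 9 more than 2-fold lower (-1.08, -1.08 and -1.03). At 1.5-fold, 2 of the 9 were higher and 2 lower (1291 and 955 of all genes), and at 3-fold 0 of the 9 were higher (104 and 136 of all genes). Filters of TPM 1 and no filter gave 886 and 1836 genes higher and 1366 and 3388 lower, and filters of 5 and 20 gave 597 and 212 lower. The median of the 9 genes, 0.24 on the deposited TPM, was 0.19 with TMM, 0.094 with CPM, 0.094 with FPKM, 0.15 with centring and 0.28 with the GC and length trend removed. Gcat turned to 0.18 with that trend removed, so 6 of the 9 were then higher, and the other 8 genes held their direction under every scaling listed. The cause of these shifts was not tested. No paired analysis was possible because each genotype had 1 library.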

Other observations

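Genes of S phase and regulators of growth were read beside the enzymes. Of 16 S-phase genes, 12 were higher and 4 lower in E14-Sox2TA/WT cells, with a median log2 ratio of 0.24, beside 57.3% higher and a median of 0.08 among the 9094 background genes. The split was 10 and 6 with CPM or FPKM and 11 and 5 with centring. Ccne2, cyclin E2, was covered by 600 and 966 reads, a log2 ratio of 1.28 (1.13 to 1.43), and Cdc45, a helicase cofactor, was lowest at -0.41. Myc was at 27.1 TPM (2047 reads) in E14 and 101.9 TPM (5158 reads) in E14-Sox2TA/WT cells, a log2 ratio of 1.91 (1.84 to 1.99). Mycn was at 45.5 TPM and 118 TPM, a log2 ratio of 1.38 (1.32 to 1.44). E2f1 was at 43.9 and 42.8 TPM, and its interval of -0.11 to 0.04 included 0, with the sign of its ratio turning after trend removal.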
